A study of Mus musculus with 24 samples.

Results

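The transcripts described here are 10 neutrophil genes measured in mouse hearts during experimental autoimmune myocarditis (EAM). They encode the calprotectin subunits S100a8 and S100a9, the granule proteins Mpo, Elane, Ltf, Camp and Ngp, the resistin-like protein Retnlg, and the surface proteins Ly6g and Trem1. The genes were chosen by symbol, and each symbol matched 1 of the 41388 Ensembl genes in the deposited count table. The 24 hearts came from adult male wild type BALB/c mice (BALB/cAnNCrl in the study's methods), with the hearts of 4 mice in each of 6 groups. EAM mice were given a cardiac α-myosin heavy chain peptide emulsified in supplemented complete Freund's adjuvant (SCFA) on day 0 and again on day 7, with pertussis toxin on day 0. Control mice had SCFA with phosphate-buffered saline in place of the peptide, on the same days and with the same toxin, so every heart in the series came from an animal exposed to adjuvant and toxin. Hearts were collected 10, 15 and 21 days after the first injection (D10, D15 and D21). Immunised mice of this strain may not all develop myocarditis, and by the study's methods samples were selected for inflammation where possible, so the EAM groups are not a random draw of immunised animals.

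Neutrophils are short-lived phagocytes that leave the bone marrow carrying ready-made proteins in granules. The granules are built in order during maturation: azurophil granules with myeloperoxidase and elastase in promyelocytes, specific granules with lactoferrin and cathelicidin in myelocytes, and the cytosolic calprotectin subunits and surface receptors in later forms. Transcripts of the azurophil proteins are therefore known mainly from immature marrow cells, whereas S100a8 and S100a9 remain abundant in circulating neutrophils and are also made by monocytes. In a whole-tissue sample, the number of neutrophils and the amount of RNA in each neutrophil cannot be told apart.

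Totals ran from 15814863 to 24980864 reads per heart, and a count of 3 reads corresponded to between 0.120 and 0.190 CPM (reads scaled to a common library size). Levels below are CPM scaled by the trimmed mean of M-values (TMM) over the 24 hearts. Heart muscle was present in every library, since the summed level of 6 cardiomyocyte markers ran from 6205 to 29465 CPM. It was lower in the D15 EAM hearts (6205 to 16831 CPM) than in the D15 control hearts (23786 to 27621 CPM). Library codes in the labels share a prefix in 20 libraries and carry another prefix in the 4 D21 EAM libraries, so at D21 the prefix and the disease cannot be told apart.

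Promoter sequence is shown for a pair each of the calprotectin, azurophil granule and specific granule genes, because all 10 genes rose together at D15. The bases are those upstream of the gene start, from the RefSeq promoter table (build GRCm38.p6), written 5′ to 3′ on the gene's strand and cut where the GENCODE M21 gene begins. Capitals mark matches, on either strand, to TTNNGNAAT (a core of sites for C/EBP factors, which direct granulocyte differentiation) or GAGGAAG (a core of sites for PU.1, which directs myeloid differentiation).
S100a8 (chr3:90668821-90668977, plus strand): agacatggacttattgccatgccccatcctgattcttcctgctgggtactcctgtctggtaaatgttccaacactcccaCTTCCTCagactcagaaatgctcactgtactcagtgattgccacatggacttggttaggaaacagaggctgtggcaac
S100a9 (chr3:90695722-90695971, minus strand): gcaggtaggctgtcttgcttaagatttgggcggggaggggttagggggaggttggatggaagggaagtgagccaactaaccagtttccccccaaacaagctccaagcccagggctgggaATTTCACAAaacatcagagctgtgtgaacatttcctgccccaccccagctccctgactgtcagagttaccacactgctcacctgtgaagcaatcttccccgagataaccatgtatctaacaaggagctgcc
Mpo (chr11:87793534-87793580, plus strand): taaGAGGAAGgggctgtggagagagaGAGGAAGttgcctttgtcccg
Elane (chr10:79886062-79886246, plus strand): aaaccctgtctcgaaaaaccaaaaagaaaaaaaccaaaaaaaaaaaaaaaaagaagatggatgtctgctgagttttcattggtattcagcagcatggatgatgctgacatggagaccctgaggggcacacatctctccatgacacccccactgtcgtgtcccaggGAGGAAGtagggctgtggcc
Ltf (chr9:111019042-111019270, plus strand): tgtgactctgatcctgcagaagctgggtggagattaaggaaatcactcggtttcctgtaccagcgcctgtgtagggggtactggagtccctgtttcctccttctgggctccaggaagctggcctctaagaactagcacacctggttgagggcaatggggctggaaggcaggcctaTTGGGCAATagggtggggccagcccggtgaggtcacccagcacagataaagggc
Ngp (chr9:110419558-110419746, plus strand): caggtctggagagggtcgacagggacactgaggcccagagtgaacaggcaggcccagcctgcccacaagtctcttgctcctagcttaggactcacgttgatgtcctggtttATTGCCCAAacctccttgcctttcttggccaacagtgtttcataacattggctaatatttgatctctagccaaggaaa
The 10 genes all had a RefSeq promoter entry, and Ly6g had 2 start sites. In the 250 bases before the RefSeq start, the C/EBP letters occurred in 3 of the 10 genes, at 131 bases before the start in S100a9, 139 in Ngp and 75 in Ltf. The same letters were found in 10.2% of all 32851 promoters searched. The PU.1 letters occurred in 4 genes, at 171 bases before the start in S100a8, at 247 and 224 in Mpo, at 85 in Elane and, depending on the start site, at 31 or 99 in Ly6g, and in 10.6% of all promoters. Camp, Retnlg and Trem1 held neither set of letters in this window. No match to one set of letters overlapped a match to the other.

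At D15 all 10 genes were induced, by log2 fold changes of 2.83 to 6.73 with a median of 3.44. Induced means a Benjamini-Hochberg adjusted p under 0.01 and at least a 2-fold rise in edgeR's quasi-likelihood test of the 4 EAM against the 4 control hearts of a day. Of all 15693 genes tested at D15, 18.1% were induced. In each of the 10 genes every D15 EAM heart lay above every D15 control heart, which held for 34.6% of all genes tested. Mpo and Elane passed the read filter (at least 10 reads in at least 4 of the 8 hearts) through the EAM hearts alone, with no control heart at 10 reads, and Trem1 had 1 such control heart, so these genes could enter the D15 test only by being higher in EAM hearts. The other 7 genes reached 10 reads in 3 or 4 of the D15 control hearts. At D10 none of the 9 genes that could be tested was induced, in edgeR or in DESeq2, and neither was any of the 15029 genes tested by edgeR (0%), while DESeq2 called 0.319% of them higher. The log2 fold change was positive in all 9, from 0.52 to 2.84, as it was in 48.5% of all genes tested, and 4 of the 9 reached an unadjusted p under 0.05, against 9.71% of all genes tested. No gene of the 9 had all D10 EAM hearts above all D10 controls, as 4.41% of all genes had. Mpo entered the D10 test through 3 EAM hearts and 1 control heart at 10 reads, whereas the other 8 genes reached 10 reads in all EAM hearts and in 3 or 4 control hearts. At D21 a single gene of the 9 tested, Trem1, was induced, against 4.13% of all 15266 genes tested. Of the genes tested at D21, Mpo and Trem1 had all EAM hearts above all control hearts, a pattern seen in 17.8% of all genes tested, and Elane, which had too few reads to be tested, had it too. No D21 control heart held 10 Mpo reads and 1 held 10 Trem1 reads, so both could enter the D21 test only by being higher in EAM hearts.

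**Figure D1:**
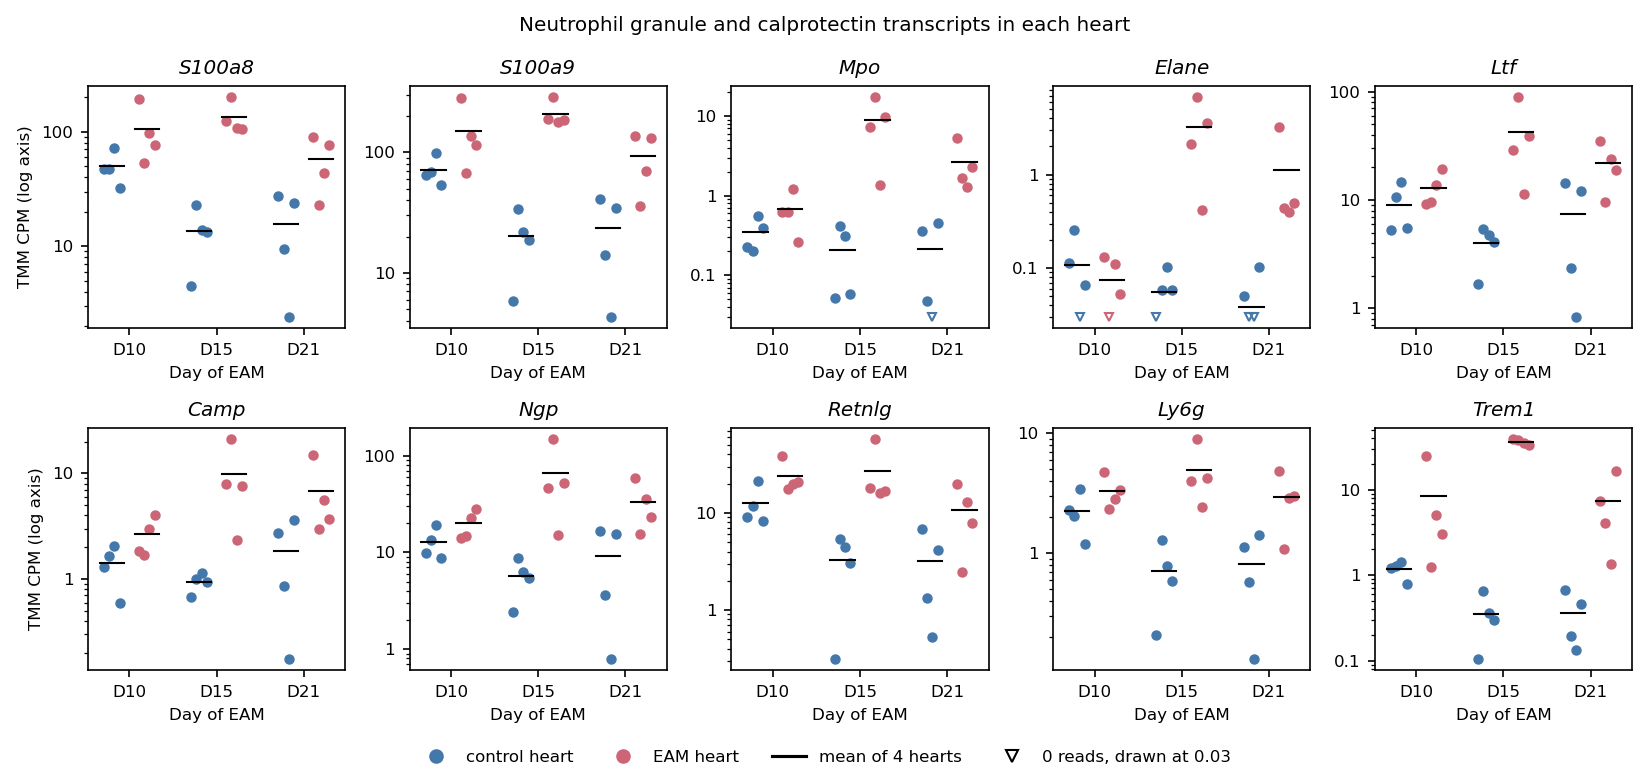
Level of each of the 10 transcripts in every heart, in TMM-scaled CPM on a log axis, by day; blue points are control hearts, red points EAM hearts and bars the mean of 4 hearts. All red points stand above all blue points at D15, from the narrow Trem1 group (32.9 to 39.0 CPM) to the wide Elane group (0.422 to 6.76 CPM), and the blue points of S100a8 are higher at D10 (32.3 to 72.7 CPM) than at D15 (4.53 to 22.8 CPM).

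Calprotectin, a calcium- and zinc-binding complex released by activated phagocytes, is formed by S100a8 (ENSMUSG00000056054, chr3:90668978-90670035, plus strand) and S100a9 (ENSMUSG00000056071, chr3:90692632-90695721, minus strand). The genes lie 22597 bases apart on chromosome 3 (GRCm38, as are all gene positions given). At D15, S100a8 was at 4.53, 22.8, 13.9 and 13.3 CPM in control hearts 1 to 4 and at 124, 201, 108 and 105 CPM in EAM hearts 1 to 4. The lowest EAM heart was thus well above the highest control heart, and the log2 fold change was 3.34 ± 0.42 (SE, adjusted p = 7.66e-05). S100a9 was at 5.84, 34.0, 21.9 and 18.9 CPM in the same control hearts and at 188, 287, 178 and 183 CPM in the EAM hearts, a log2 fold change of 3.42 ± 0.44 (adjusted p = 8.72e-05). Control heart 1 was the lowest of its group for both subunits, and in fact for all 10 genes.

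At D10 the calprotectin subunits were already abundant in the control hearts. S100a8 was at 47.5, 46.9, 72.7 and 32.3 CPM in the D10 control hearts and at 193, 53.1, 96.8 and 76.9 CPM in the D10 EAM hearts. Heart 2 of the EAM group fell inside the control range while heart 1 was far above it, and the log2 fold change of 1.07 ± 0.39 was not significant (adjusted p = 0.328). S100a9 behaved alike, with 64.8, 68.7, 99.4 and 53.5 CPM in control hearts and 283, 67.6, 136 and 114 CPM in EAM hearts (log2 fold change 1.06 ± 0.40, adjusted p = 0.328). Without EAM heart 1 the S100a8 value at D10 was 0.59 ± 0.26 (adjusted p = 0.457).

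D10 EAM heart 1 also stood apart from the other D10 EAM hearts in markers of several cell types. Its summed level of 7 neutrophil-defining markers was 546 CPM against 58.4 to 133 CPM in the other three, that of 8 monocyte and macrophage markers 999.6 against 373 to 561 CPM, and that of 6 T cell markers 30.2 against 4.01 to 10.03 CPM. The leucocyte transcript Ptprc was at 194 CPM in it against 27.7 to 56.7 CPM, and the cardiomyocyte markers at 14756 against 22719 to 27270 CPM. The part of these differences in the D10 values of the 10 genes was not tested.

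At D21 the spread within groups was wide. S100a8 was at 27.6, 9.37, 2.41 and 23.7 CPM in control hearts and at 89.3, 22.8, 43.3 and 77.2 CPM in EAM hearts, with EAM heart 2 below 2 of the controls. The log2 fold change was 1.92 ± 0.70 (adjusted p = 0.0630). S100a9 was at 40.8, 13.9, 4.29 and 34.2 CPM in control hearts and at 137, 36.1, 70.3 and 131 CPM in EAM hearts, with a log2 fold change of 2.04 ± 0.68 (adjusted p = 0.0481). Neither subunit met the threshold of 0.01 at D21, and DESeq2 called S100a9 (adjusted p = 0.00535), with 8.93% of all genes called higher by that tool.

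The azurophil granule is represented by Mpo (ENSMUSG00000009350, chr11:87793581-87804413, plus strand), the peroxidase that turns hydrogen peroxide and chloride into hypochlorous acid, and Elane (ENSMUSG00000020125, chr10:79886247-79888215, plus strand), a serine protease. Both were near the limit of detection in control hearts. At D15, Mpo was at 0.0521, 0.413, 0.311 and 0.0589 CPM in control hearts, which is 1 to 7 reads per heart, and at 7.28, 17.3, 1.35 and 9.69 CPM in EAM hearts, which is 32 to 494 reads. Heart 3 of the EAM group held far less Mpo than the other three. The log2 fold change was 5.43 ± 0.89 (adjusted p = 4.12e-04), the third largest of the 10 genes.

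Elane was found at 0, 1, 2 and 1 reads in the D15 control hearts and at 51, 193, 10 and 93 reads in the D15 EAM hearts. As levels, the EAM hearts stood at 2.12, 6.76, 0.422 and 3.59 CPM. The 347 reads of the EAM hearts against 4 of the controls gave a ratio of 70.04 per total reads, with an exact 95% interval of 27.1 to 259 that covers counting error only. The fitted log2 fold change was 5.78 ± 1.07 (adjusted p = 8.60e-04), in a gene that met the read filter through its EAM hearts only, and 5.12 without EAM heart 2 (adjusted p = 9.17e-04). Elane and Mpo had the same order of EAM hearts on this day, from heart 2 down through hearts 4 and 1 to heart 3.

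At D10, by contrast, Elane stayed between 0 and 5 reads in each of the 8 hearts and was not tested. Mpo was at 0.228, 0.205, 0.562 and 0.397 CPM in D10 control hearts and at 0.619, 0.623, 1.23 and 0.264 CPM in D10 EAM hearts. The groups overlapped (log2 fold change 0.95 ± 0.50, adjusted p = 0.360). At D21, Mpo was at 0.356, 0.0480, 0 and 0.461 CPM in control hearts and at 5.23, 1.69, 1.27 and 2.26 CPM in EAM hearts. These groups did not overlap, and the log2 fold change of 3.65 ± 0.79 just missed the threshold (adjusted p = 0.0131). DESeq2 called it (adjusted p = 1.65e-04). Elane at D21 was found at 65, 8, 6 and 9 reads in EAM hearts, so that a single heart held most of them, and at 1, 0, 0 and 2 reads in control hearts. It failed the read filter of that day, and its ratio per total reads was 34.8 with an exact 95% interval of 11.5 to 172 for counting error.

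Specific granules carry lactoferrin, an iron-binding protein encoded by Ltf (ENSMUSG00000032496, chr9:111019271-111042767, plus strand), the antimicrobial cathelicidin encoded by Camp (ENSMUSG00000038357, chr9:109847379-109849617, minus strand), and neutrophilic granule protein, a cystatin-like protein encoded by Ngp (ENSMUSG00000032484, chr9:110419747-110423012, plus strand). Ngp lies 570130 bases from Camp and 596259 bases from Ltf on chromosome 9. At D15, Ngp was at 2.40, 8.68, 6.22 and 5.42 CPM in control hearts and at 46.2, 149, 15.2 and 52.0 CPM in EAM hearts. The EAM hearts thus differed among themselves by 9.83-fold, compared with 1.91-fold for S100a8 in the same hearts. The log2 fold change of Ngp was 3.58 ± 0.68 (adjusted p = 9.93e-04), and 2.79 without EAM heart 2 (adjusted p = 5.44e-04).

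Ltf had the same order of EAM hearts as Ngp, and Camp differed from it in hearts 1 and 4, whose values were close. Ltf was at 1.67, 5.43, 4.77 and 4.06 CPM in D15 control hearts and at 29.1, 89.3, 11.3 and 39.3 CPM in D15 EAM hearts, a log2 fold change of 3.45 ± 0.62 (adjusted p = 7.19e-04). Camp was at 0.677, 1.004, 1.14 and 0.943 CPM in control hearts and at 7.99, 21.2, 2.32 and 7.64 CPM in EAM hearts (log2 fold change 3.42 ± 0.64, adjusted p = 9.08e-04). EAM heart 2 was the highest D15 EAM heart in 9 of the 10 genes, Trem1 being the exception, and EAM heart 3 was the lowest in 8 of the 10, the exceptions being S100a8 and Trem1. In D15 EAM hearts 1 to 4 the summed cardiomyocyte markers were at 8932, 6205, 16831 and 10249 CPM. The monocyte and macrophage markers were at 1821, 1631, 1289 and 1712 CPM. The part of these differences in the order of the hearts was not tested. Without EAM heart 2 the log2 fold changes of Ltf and Camp were 2.79 and 2.71, and both calls were kept.

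At D10 the specific granule transcripts did not follow the calprotectin subunits in the heart where these were highest. Ngp was at 9.88, 13.5, 19.3 and 8.73 CPM in D10 control hearts and at 14.2, 14.8, 22.8 and 28.2 CPM in D10 EAM hearts. EAM heart 1, highest for S100a8, S100a9, Retnlg, Ly6g and Trem1, was the lowest of its group for Ngp and Ltf. Ltf was at 5.25, 10.6, 14.7 and 5.49 CPM in control hearts and at 9.24, 9.52, 13.9 and 19.5 CPM in EAM hearts on that day. Camp was at 1.31, 1.64, 2.08 and 0.595 CPM in control hearts and at 1.86, 1.70, 3.01 and 4.01 CPM in EAM hearts. The log2 fold changes of 0.62 ± 0.30 for Ngp, 0.52 ± 0.38 for Ltf and 0.88 ± 0.40 for Camp were not significant (adjusted p from 0.330 to 0.463).

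At D21, Ngp was at 16.8, 3.65, 0.788 and 15.7 CPM in control hearts and at 59.2, 15.6, 35.9 and 23.5 CPM in EAM hearts. Ltf was at 14.2, 2.35, 0.832 and 12.2 CPM in control hearts and at 35.0, 9.54, 23.9 and 18.8 CPM in EAM hearts. Control hearts 2 and 3 held far less of both than control hearts 1 and 4. Camp was at 2.75, 0.865, 0.175 and 3.64 CPM in control hearts and at 14.9, 2.998, 5.55 and 3.70 CPM in EAM hearts. In each of these genes EAM heart 2 was the one that overlapped the controls, and the log2 fold changes were 1.89 ± 0.80 for Ngp (adjusted p = 0.0959), 1.59 ± 0.77 for Ltf (adjusted p = 0.140) and 1.91 ± 0.80 for Camp (adjusted p = 0.0943).

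Retnlg (ENSMUSG00000022651, chr16:48872621-48874496, plus strand) encodes a small secreted protein of the resistin family that is made by mouse neutrophils. At D15 it was at 0.313, 5.43, 4.40 and 3.06 CPM in control hearts and at 18.1, 57.6, 16.2 and 16.8 CPM in EAM hearts, a log2 fold change of 3.09 ± 0.65 (adjusted p = 0.00194). Heart 2 was again far above the other EAM hearts, and without it the value was 2.42 (adjusted p = 0.00197). At D10 it was at 9.02, 11.8, 21.5 and 8.20 CPM in control hearts and at 38.5, 17.6, 19.9 and 20.6 CPM in EAM hearts (log2 fold change 0.92 ± 0.35, adjusted p = 0.328). At D21 it was at 6.81, 1.34, 0.525 and 4.15 CPM in control hearts and at 19.9, 2.45, 12.9 and 7.95 CPM in EAM hearts (log2 fold change 1.78 ± 0.80, adjusted p = 0.112). Of its tested relatives Retnla and Retn, neither was called on any day. At D15 their log2 fold changes were 1.002 ± 0.37 and 0.37 ± 0.38 (adjusted p = 0.0339 and 0.402), and at D21 their log2 fold changes were -1.45 ± 0.40 and -3.65 ± 0.73 (adjusted p = 0.0277 and 0.0102).

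Ly6g (ENSMUSG00000022582, chr15:75155240-75159126, plus strand) is the surface antigen used to recognise mouse neutrophils. It belongs to a cluster of similar Ly6 genes, and whether reads shared with its relatives affect its level was not tested. At D15 it was at 0.208, 1.30, 0.777 and 0.589 CPM in control hearts and at 3.996, 8.97, 2.45 and 4.28 CPM in EAM hearts (log2 fold change 2.83 ± 0.52, adjusted p = 8.44e-04). This was the smallest rise of the 10 genes. At D10 it was at 2.28, 2.05, 3.43 and 1.19 CPM in control hearts and at 4.77, 2.32, 2.84 and 3.38 CPM in EAM hearts (log2 fold change 0.56 ± 0.33, adjusted p = 0.392). At D21 it was at 1.12, 0.576, 0.131 and 1.43 CPM in control hearts and at 4.88, 1.09, 2.87 and 2.98 CPM in EAM hearts (log2 fold change 1.90 ± 0.63, adjusted p = 0.0477).

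Trem1 (ENSMUSG00000042265, chr17:48232768-48246924, plus strand) encodes an activating receptor of neutrophils and monocytes that signals through Tyrobp and amplifies inflammatory cytokine release. At D15 it was at 0.104, 0.650, 0.363 and 0.295 CPM in control hearts and at 39.0, 38.1, 35.2 and 32.9 CPM in EAM hearts. It had both the largest rise of the 10 genes and the tightest EAM group, whose highest heart was 1.19-fold above its lowest. The log2 fold change was 6.73 ± 0.25 (adjusted p = 3.91e-08). At D10 it was at 1.20, 1.28, 1.40 and 0.793 CPM in control hearts and at 24.4, 1.25, 5.07 and 3.06 CPM in EAM hearts. EAM hearts 1, 3 and 4 were above every control and heart 2 was not (log2 fold change 2.84 ± 0.85, adjusted p = 0.328). Without EAM heart 1 the value was 1.39 ± 0.42 (adjusted p = 0.391).

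At D21, Trem1 was at 0.661, 0.192, 0.131 and 0.461 CPM in control hearts and at 7.35, 4.09, 1.34 and 16.3 CPM in EAM hearts. The groups did not overlap, although the EAM hearts differed 12.2-fold among themselves. The log2 fold change was 4.38 ± 0.84 (adjusted p = 0.00916). The call was lost when any of 7 hearts was left out (adjusted p up to 0.0355) and kept without EAM heart 3 (adjusted p = 9.51e-04). In those 7 fits 0 to 2.57% of all genes were called higher, against 10.3% without EAM heart 3. The log2 fold change of Trem1 ran from 3.60 to 4.82 over the 8 fits. Without EAM heart 4, the highest, the value was 3.60 (adjusted p = 0.0106). In D21 EAM hearts 1 to 4 Ptprc was at 149, 96.3, 48.9 and 229 CPM. The summed cardiomyocyte markers were at 14326.5, 19943, 27914 and 11606 CPM in these hearts. The part of these differences in the D21 values of Trem1 was not tested.

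**Figure D2:**
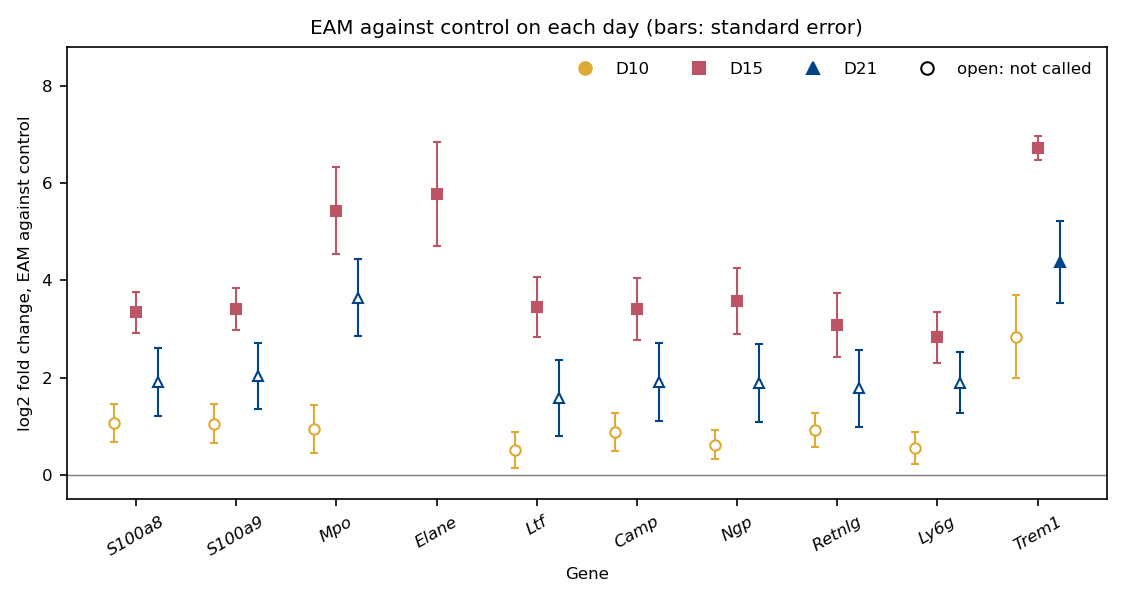
Log2 fold change of EAM against control hearts for each gene at D10, D15 and D21 in edgeR's quasi-likelihood test, with bars for the standard error; filled symbols are called (adjusted p under 0.01 and at least 2-fold) and open ones are not. Every D15 symbol is filled, from 2.83 for Ly6g to 6.73 for Trem1, and Trem1 at 4.38 is the one filled symbol at D21; Elane was tested at D15 only.

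Per kilobase of annotated exon, which allows levels to be compared between genes, S100a9 was the most abundant of the 10 in the D15 EAM hearts at 401 ± 100 CPM per kb (SD, n = 4). S100a8 came next at 194 ± 64.7, Ngp at 53.7 ± 47.4 and Retnlg at 45.9 ± 34.2 CPM per kb. A group of Camp (12.9 ± 10.6), Ltf (12.2 ± 9.69) and Trem1 (12.1 ± 0.937) followed. Ly6g (5.23 ± 2.99), Elane (3.28 ± 2.74) and Mpo (2.60 ± 1.93) were lowest. The steps from S100a9 to S100a8, from S100a8 to Ngp and from Trem1 to Ly6g were larger than the SDs of both genes, and the other neighbours in this order differed by less than the larger of their SDs. In D10 control hearts the order began in the same way, with S100a9 at 137 ± 37.6 and S100a8 at 71.8 ± 24.2 CPM per kb, and Elane (0.111 ± 0.110) and Mpo (0.102 ± 0.0485) were again last.

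The next comparisons asked whether the difference between EAM and control hearts changed from day to day, in 1 model of all 24 hearts and 16318 genes. These comparisons share hearts, since each day enters more than one of them. From D10 to D15 the log2 fold change was larger in all 10 genes (48.3% of all genes), by 2.11 to 6.24, with an unadjusted p under 0.05 in all 10, against 24% of all genes. The value of 6.24 belongs to Elane, which reached 10 reads in the 4 D15 EAM hearts and 1 D21 EAM heart and in no other, and so entered this model through the groups where it was high. After adjustment it was called for Mpo, at 4.42 ± 1.23 (adjusted p = 0.00772), against 5.38% of all genes with a called growth. That call was kept in 12 of the 24 fits with a heart left out (adjusted p up to 0.0265). Over these 24 fits 2.98 to 12.2% of all genes had a called growth. Mpo reached 10 reads in 1 D10 control heart and in no D15 or D21 control heart. DESeq2 called 6 of the 10, and 8.06% of all genes. From D15 to D21 all 10 genes had a negative value (50.1% of all genes), from -0.91 for Ly6g to -2.34 for Trem1 with a median of -1.45. None of these passed (lowest adjusted p = 0.145), none had an unadjusted p under 0.05, and DESeq2 called none, where 0.919% of all genes had a called decline in edgeR and 1.56% in DESeq2. From D10 to D21 no gene passed in edgeR or DESeq2 either (0.0735% of all genes had a called growth in edgeR and 0.503% in DESeq2), and 2, Mpo and Elane, had an unadjusted p under 0.05, as had 8.52% of all genes.

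The control hearts themselves also differed between days. Mean S100a8 in control hearts was 49.9 ± 16.8 CPM at D10, 13.6 ± 7.46 CPM at D15 and 15.8 ± 11.9 CPM at D21 (SD, n = 4). Each D10 control heart was above every D15 and every D21 control heart. The log2 difference of D15 from D10 controls was -1.87 ± 0.59 for S100a8, -1.83 ± 0.58 for S100a9, -1.94 ± 0.72 for Retnlg and -1.65 ± 0.59 for Ly6g. These 4 genes had an unadjusted p under 0.05 (0.00432, 0.00471, 0.0132 and 0.0104), as did 3.24% of all genes in the lower direction, but no gene of the 10 was called in edgeR or DESeq2 (adjusted p of at least 0.348; 0.0858% of all genes were called lower in edgeR and 0.214% in DESeq2).

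From D10 to D21 the controls showed the same 4 genes at an unadjusted p under 0.05, with log2 differences of -1.67 ± 0.58 for S100a8, -1.62 ± 0.57 for S100a9, -1.99 ± 0.71 for Retnlg and -1.48 ± 0.57 for Ly6g. In the lower direction 4.68% of all genes reached that p. None was called in edgeR or DESeq2 (adjusted p of at least 0.196; 0.0919% of all genes called lower in edgeR and 0.319% in DESeq2), and both control comparisons share the D10 hearts. Camp was the 1 gene with a positive value, 0.37 ± 0.72. Between D15 and D21 controls no gene was called and none had an unadjusted p under 0.05. The D10 controls also had more of 4 platelet markers, whose summed level was 51.6 to 133 CPM against 11.7 to 15.2 CPM in D15 and 9.501 to 19.8 CPM in D21 controls (63.9 to 102 CPM in D10 and 29.7 to 65.7 CPM in D15 EAM hearts), and of 7 neutrophil-defining markers, at 47.6 to 75.7 CPM against 8.34 to 27.3 and 7.36 to 32.8 CPM. The part of the platelet signal in these values was not tested.

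A direct comparison of D15 with D10 EAM hearts, added after the control values were seen, gave its highest values for the azurophil genes. Elane rose by a log2 fold change of 5.28 ± 0.94 (adjusted p = 1.08e-04), Mpo by 3.71 ± 0.69 (adjusted p = 1.52e-04) and Trem1 by 2.09 ± 0.64 (adjusted p = 0.00838), while 10.4% of all genes were called higher. Elane had 0 to 3 reads in the D10 EAM hearts and could be tested only through the groups where it was high. The specific granule genes had values of 1.89 ± 0.65 for Camp, 1.72 ± 0.66 for Ngp and 1.70 ± 0.65 for Ltf and were not called (adjusted p from 0.0162 to 0.0301). S100a8 (0.35 ± 0.55), S100a9 (0.48 ± 0.55), Retnlg (0.17 ± 0.65) and Ly6g (0.56 ± 0.49) differed least, with adjusted p from 0.332 to 0.833. Whether the classes differ from each other was not tested. The calls of Elane and Mpo held with any single heart left out, although the Elane value was 4.67 without D15 EAM heart 2. That of Trem1 held in 8 of 24 such fits (adjusted p up to 0.0298), and its value was 3.53 without D10 EAM heart 1. DESeq2 called 4 genes, these and Camp, and 11.4% of all genes. In the same comparison Ptprc rose by 1.79 ± 0.46 (adjusted p = 0.00231), as did 6 of 6 T cell, 3 of 4 NK cell and 4 of 8 monocyte and macrophage markers, while 0 of 7 neutrophil-defining markers were called. Of the markers of other cells, 4 of 6 for cardiomyocytes and 3 of 4 for platelets fell, where 9.18% of all genes did. The part of these cells in the members' values was not tested.

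**Figure D3:**
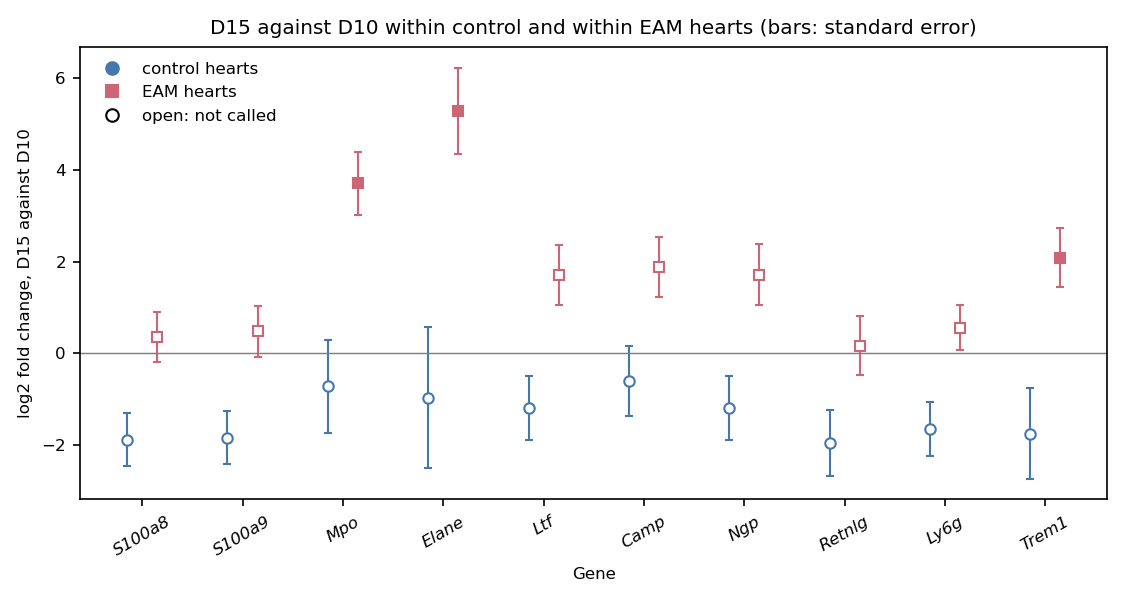
Log2 fold change from D10 to D15 within control hearts (blue) and within EAM hearts (red) for each gene, with bars for the standard error; filled symbols are called. Elane, Mpo and Trem1 are filled in the EAM hearts, whereas for S100a8, S100a9, Retnlg and Ly6g the red symbols lie between 0.17 and 0.56 and the blue ones between -1.94 and -1.65.

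Ratios of 2 genes within a heart do not depend on how the library was scaled. The number of S100a9 reads per 100 S100a8 reads ran from 127 to 177 over the 24 hearts, and no difference between EAM and control hearts was detected on any day (adjusted p of at least 0.600 in an exact two-sided permutation test, 4 against 4 hearts). These values are not corrected for length. Trem1 stood at 31.5, 19.0, 32.5 and 31.3 reads per 100 S100a8 reads in the D15 EAM hearts and at 2.86, 2.98, 2.78 and 2.43 in the D15 control hearts. The groups were far apart, a log2 difference of 3.34. The exact test of 4 against 4 hearts cannot give a p below 0.0286, and that p came to 0.267 after adjustment over the 28 ratios tested. Ly6g had 3.24, 4.48, 2.28 and 4.10 reads per 100 S100a8 reads in the D15 EAM hearts and 5.14, 5.82, 5.75 and 4.64 in the controls, with all EAM hearts lower (log2 difference -0.64, p = 0.0286 by the exact test, adjusted p = 0.267).

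Mpo per 100 S100a8 reads was 5.90, 8.64, 1.27 and 9.25 in D15 EAM hearts and 1.71, 1.94, 2.41 and 0.662 in D15 controls, where EAM heart 3 fell into the control range (exact p = 0.114, adjusted p = 0.457). At D21 it was 5.88, 7.53, 3.01 and 2.97 in EAM hearts and 1.38, 0.767, 0.901 and 2.05 in controls, without overlap (log2 difference 1.91, exact p = 0.0286, adjusted p = 0.267). For each ratio 0.5 reads were added to both counts, and the control values rest on few Mpo reads: 1, 7, 6 and 1 at D15 and 7, 1, 0 and 9 at D21, so that the value of D21 control heart 3 is set by the added 0.5 reads. Ngp also varied widely among hearts of a group. It stood at 7.37, 27.9, 23.6 and 36.7 reads per 100 S100a8 reads in the D10 EAM hearts and at 37.4, 74.3, 14.01 and 49.5 in the D15 EAM hearts, compared with 20.8 to 28.9 and 38.2 to 53.1 in the controls of those days. No ratio passed the threshold of 0.05 on any day.

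**Figure D4:**
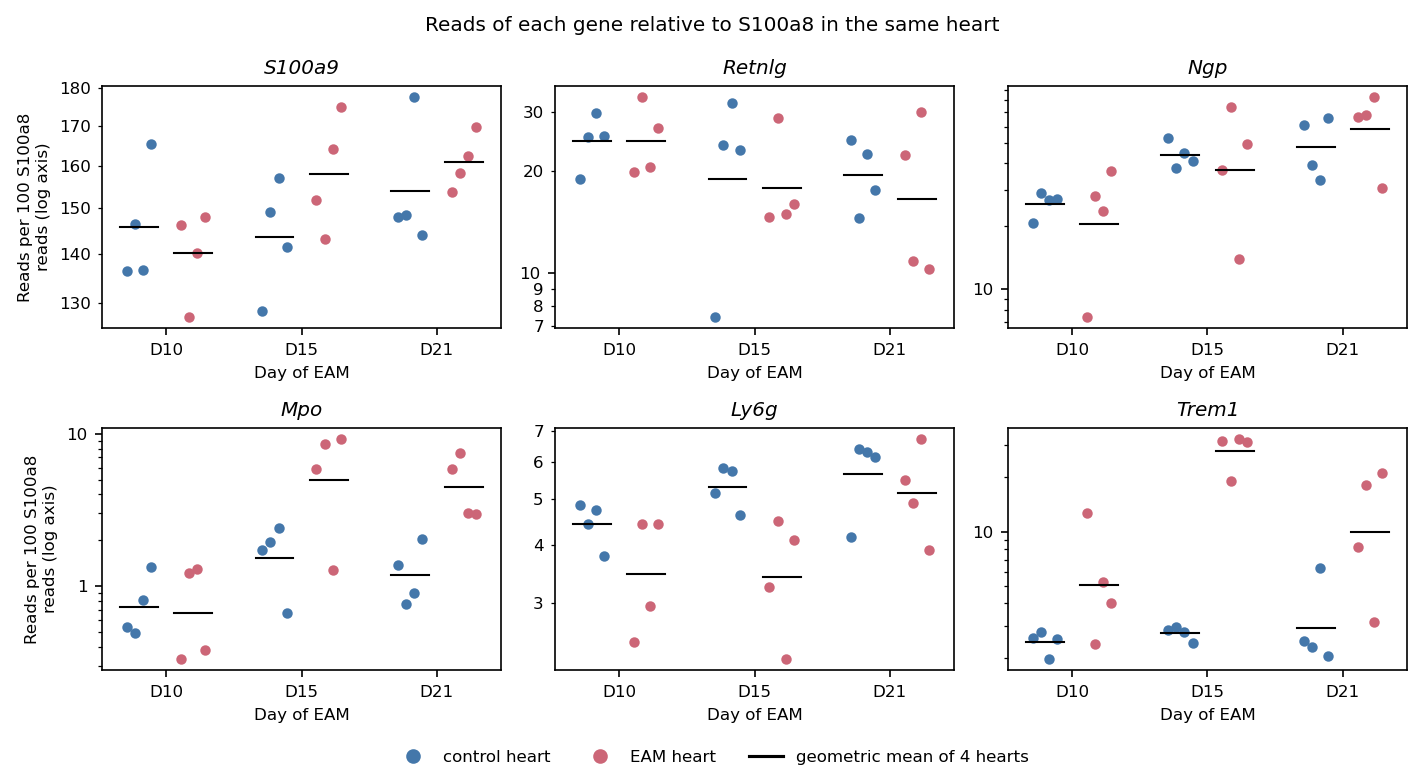
Reads of 6 genes per 100 S100a8 reads in the same heart, on a log axis and without correction for length, by day; blue points are control hearts, red points EAM hearts and bars the geometric mean of 4 hearts. S100a9 stays between 127 and 177 in all hearts, Trem1 at D15 is 19.0 to 32.5 in EAM hearts and 2.43 to 2.98 in controls, and Ngp spreads from 14.01 to 74.3 among the D15 EAM hearts.

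The general leucocyte transcript Ptprc, which encodes CD45, rose by a log2 fold change of 3.98 ± 0.12 at D15 (adjusted p = 1.43e-08, edgeR), compared with 3.34 ± 0.42 for S100a8. Per 100 Ptprc reads the D15 EAM hearts held 40.5, 78.3, 44.4 and 35.0 S100a8 reads and the D15 controls 27.0, 138, 78.2 and 64.3 (exact p = 0.429, adjusted p = 1). In the D10 controls that figure was 123 to 255, higher than in all D15 and D21 hearts except D15 control heart 2. Beside the members, markers of several leucocytes rose at D15: 7 of 7 neutrophil-defining markers, 7 of 8 monocyte and macrophage markers, 6 of 6 T cell markers and 4 of 4 NK cell markers. Of all genes, 18.1% rose. For other cells the counts at D15 were 1 of 3 B cell, 2 of 3 platelet, 0 of 5 mast cell and 0 of 5 erythroid markers, and 4 of 6 cardiomyocyte markers fell, where 12.9% of all genes did. Eosinophils, which share some granule proteins with neutrophils, had 1 tested marker of 5, induced, and a summed level of 2.59 to 6.03 CPM in D15 EAM hearts against 0.0591 to 0.177 CPM in controls, where the defining marker Epx was at 0. The tested eosinophil marker, Siglecf, and 1 marker each of the T cell (Cd8a) and NK cell (Klrb1c) lists had no D15 control heart at 10 reads and could be tested only by being higher in EAM hearts. The neutrophil-defining markers summed to 393 to 671 CPM in D15 EAM hearts and 8.34 to 27.3 CPM in D15 controls, and the monocyte and macrophage markers to 1289 to 1821 and 256 to 293 CPM. The part of each cell type in the members' levels was not tested.

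Other genes of the granule program were counted in lists, by the same edgeR test. Of 6 further azurophil granule genes, 3 passed the read filter at D15 and all 3 rose, where 18.1% of all genes did: the proteinase 3 gene Prtn3 (log2 fold change 4.96 ± 0.51), the protease-activating cathepsin C gene Ctsc (3.95 ± 0.11) and the lysosomal hexosaminidase gene Hexa (1.43 ± 0.19). Prtn3 had no control heart at 10 reads, so it could enter the D15 test only by being higher in EAM hearts. Ctsc and Hexa averaged 51.5 and 99.0 CPM in D15 control hearts, where Mpo averaged 0.209 CPM. Which cells these transcripts came from was not tested. Ctsg, Ms4a3 and Prss57 had too few reads to test. All 11 further specific and gelatinase granule genes were tested and rose at D15, against 18.1% of all genes, 1 of the 11 with no control heart at 10 reads. Their median log2 fold change was 5.17 against 0.02 over all genes, and the list was led by the chitinase-like Chil3 (7.90 ± 0.93), the metalloprotease Adam8 (6.83 ± 0.50) and haptoglobin Hp (5.86 ± 0.39). At D21, 7 of these 11 were called, against 4.13% of all genes. The 3 azurophil genes were not called at D21. They had log2 fold changes of 1.22 to 3.71 (adjusted p from 0.0105 to 0.0205), with every EAM heart above every control, as in 17.8% of all genes. The highest value was that of Prtn3, which had 1 control heart at 10 reads and so could enter the D21 test only by being higher in EAM hearts. At D10 none of either list was called in edgeR, as was no gene tested (0%). On that day 1 of 3 and 10 of 11 were higher at an unadjusted p under 0.05, against 9.71% of all genes.

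Of 23 neutrophil surface and cytosol genes, 21 were tested at D15, 2 of them with no control heart at 10 reads, 20 rose and 1 fell. Of all genes, 18.1% rose and 12.9% fell. The rise was greatest for the lectin receptors Clec4e (7.51 ± 0.28) and Clec4d (6.33 ± 0.30) and the decoy interleukin-1 receptor Il1r2 (7.51 ± 0.48). The gene that fell, named after its value was seen, was G0s2 (-1.11 ± 0.23), an inhibitor of triglyceride lipase. Which cells the transcripts of this list came from, for the genes that rose and the one that fell, was not tested. At D21, 6 of 19 tested were called, against 4.13% of all genes. At D10 0 of 22 were called, as was no gene tested (0%), with 19 higher at an unadjusted p under 0.05, against 9.71% of all genes. Of 9 regulators of granulopoiesis, 6 reached 10 reads in all D15 control hearts and all 6 rose at D15, where 18.1% of all genes did. The other three, Csf3, Cebpe and Gfi1, met the read filter through the EAM hearts alone, with no control heart at 10 reads, and were called too. Among these were Cebpe (5.44 ± 0.71), a C/EBP factor needed for specific granules, and Gfi1 (4.69 ± 0.34), a repressor needed for neutrophil differentiation. Csf3, the granulocyte colony-stimulating factor, had 0 reads in all D15 controls and 87 to 213 reads in the D15 EAM hearts, at least 125.5-fold higher in mean TMM-scaled CPM when the controls are set to 3 reads over the group. Cebpe rested on 23 to 72 reads per EAM heart and 2 reads in all controls.

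Of 13 genes that act with calprotectin or Trem1, all 13 were tested, 3 of them with no control heart at 10 reads, and rose at D15 (median 3.37 on the log2 scale), among them the Trem relatives Treml4 (5.25 ± 0.44), Treml2 (5.18 ± 0.15) and Trem3 (5.14 ± 0.20). Treml4 and Trem3 belong to those 3 genes, so they could be tested only by being higher in EAM hearts. Of all genes, 18.1% were induced at D15. At D21, 3 of 12 tested were called, against 4.13% of all genes. At D10 0 of 11 were called, as was no gene tested (0%), with 6 higher at an unadjusted p under 0.05, against 9.71% of all genes. The wider S100 family was mixed. Of 13 other S100 genes, 8 were tested at D15, 4 rose, 1 fell and 3 were not called, where 18.1% of all genes rose and 12.9% fell. S100a4 (2.80 ± 0.14), S100a11 (2.19 ± 0.13) and S100a6 (1.63 ± 0.10) rose, and S100a1, a cardiomyocyte protein, fell by 1.12 ± 0.13 (named after its value was seen).

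The genes outside the 10 whose pattern over the 24 hearts was most like a member were sought among the 14280 genes that averaged 1 CPM or more, by the root mean square difference of log2(CPM + 1) after each gene was centred on its own mean. Closest to S100a8 among them were Cd177 (0.46), Ifitm6 (0.49) and Mmp8 (0.53), while its fellow members S100a9 (0.12) and Retnlg (0.45) were nearer. For Retnlg they were Cd177 (0.47), Ifitm6 (0.49) and BC100530 (0.61), and S100a8 was nearer. For Ngp the nearest were Cd177 (0.67), Pglyrp1 (0.75) and C3 (0.76), farther than its fellow member Ltf (0.19). Trem1 was closest to Slfn1 (0.25), Mcemp1 (0.25) and Ltb4r1 (0.27) and stood apart from the other members, the nearest of which was S100a9 (1.02). These distances are descriptions without a test.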

How the data were processed

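Myocardial RNA of 24 hearts was sequenced from strand-specific mRNA libraries (NEBNext Ultra II Directional). The authors aligned reads to GRCm38 with HISAT2 (version 2.0.4 in the submitters' processing notes), removed duplicates with Picard and counted reads per Ensembl gene with featureCounts. Its strand setting was not given in the sources used here. Duplicate removal can lower the counts of short, abundant transcripts such as S100a8. The deposited values are raw counts, in 41388 Ensembl genes and 92 spike-in rows that held 0 reads. No column was without a sample (0).

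Symbols and positions came from GENCODE M21 (same build), which named 40340 IDs. Samples were grouped by the labels. The main test was edgeR (4.0.16, R 4.3.3) quasi-likelihood with TMM factors on genes that reached 10 reads in 4 or more hearts of the fit, an adjusted p (Benjamini-Hochberg over all genes) under 0.01 and at least a 2-fold change. Days were fitted alone (8 hearts); differences between days used all 24. Standard errors are the log2 fold change over the root of the F statistic. Ratios used log2 counts plus 0.5. Alternatives were DESeq2 (1.42.0), other size factors, no filter, the legacy fit, a replicate block, all 12 controls, a threshold of 0.05 and leaving out each heart. Scripts were tested on simulated data. The members and gene lists were chosen with earlier results of these data known. Named genes were the members and, from each list, up to 3 with the largest change at D15, Ptprc, and the 3 genes most like each of S100a8, Ngp, Retnlg and Trem1. By the study, the 4 samples of a group came from 4 mice.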

Additional observations from a re-analysis of the deposited data

Results flagged for a closer look

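Among 112 sets of 4 hearts (a gene's level or ratio in 1 group), 9 had a heart that stood apart from the other three by more than Dixon's 95% critical value for the gap relative to the range; chance flags about 1 group in 20. Of these, D15 EAM heart 2 accounted for S100a9 at 287 CPM, Retnlg at 57.6 CPM, Retnlg per S100a8 at a log2 ratio of -1.80 and Trem1 per S100a8 at -2.40, where S100a8 was also the highest of its group. D10 EAM heart 1 stood apart for Retnlg at 38.5 CPM and Trem1 at 24.4 CPM. In the controls, D21 heart 3 had the highest S100a9 per S100a8 (log2 ratio 0.83, on 55 S100a8 reads), D21 heart 1 the lowest Ly6g per S100a8 (-4.59) and D10 heart 3 the highest S100a8 per Ptprc (1.35).

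The effect of EAM on Mpo differed between D10 and D15 by 4.42 on the log2 scale in the test of the difference itself (adjusted p = 0.00772, edgeR). The call was kept in 12 of 24 fits with a heart left out, with an adjusted p of up to 0.0265. All 4 D15 EAM hearts were above all D15 controls, while the D10 groups overlapped.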

How the results depend on the processing

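At D15 all 10 genes were induced under every alternative and without any single heart. At D10 the count was 0 except with all 12 control hearts, where it was 1 (4.06% of all genes). At D21 the 1 gene induced (4.13% of all genes) became 4 at a threshold of 0.05 (9.3%), 3 with DESeq2 (8.93%), 2 with the replicate block (3.94%) and 5 with all 12 control hearts (10.1%), and 0 to 2 with a heart left out (0 to 10.3%). For the growth from D10 to D15 the 1 gene (5.38% of all genes) became 6 with DESeq2 (8.06%), 5 with the replicate block (7.89%) and 0 to 4 with a heart left out (2.98 to 12.2%), with 4 reached without D10 EAM heart 1 (12.2%) and without D15 EAM heart 3 (6.26%). The labels do not say what the replicate numbers mark, and the deviations of same-numbered hearts correlated at -0.0827 to 0.368 at D10, -0.0955 to 0.0351 at D15 and 0.0966 to 0.303 at D21, so the hearts were not treated as pairs. The cause of these changes was not tested.

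With a heart left out, some values that were not called changed sign. The log2 values ran from -2.32 to 0.0016 for Elane from D15 to D21, from -0.19 to 0.76 for Camp and -0.83 to 0.088 for Ltf in D21 against D10 controls, and from -0.46 to 0.49 for Retnlg in D15 against D10 EAM hearts. Ratio differences per S100a8 at D10 ran from -0.088 to 0.0047 for S100a9, -0.14 to 0.10 for Retnlg, -0.60 to 0.17 for Ngp, -0.35 to 0.46 for Camp, -0.68 to 0.13 for Ltf and -0.45 to 0.21 for Mpo, at D15 from -0.54 to 0.15 for Retnlg, -0.57 to 0.23 for Ngp and -0.57 to 0.13 for Ltf, and at D21 from -0.15 to 0.44 for Camp and -0.24 to 0.20 for Ltf. S100a8 per Ptprc ran from -0.10 to 0.25 at D10 and -0.73 to 0.16 at D21. Depth limits Elane and Mpo in controls, at 0 to 10 reads per heart.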
